A study of Mus musculus with 6 samples.

Results

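DNA damage and repair genes were examined in CD4+YFP+CD25+ Tregs with and without Zfp335. The genes were chosen by name: 43 listed symbols of homologous recombination, the Fanconi anemia pathway, end joining, mismatch and base excision repair, and the checkpoint kinases were looked up in a table of 13709 gene rows. Of these symbols, 42 were found, on 43 rows, since Pms2 had 2 rows. H2afx was not found under that name. RefSeq gives it as an older name of H2ax, which is in the table and is described separately without entering the counts.

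Tregs, the CD4+ T cells marked by the transcription factor Foxp3, hold other T cells in check. Bulk RNA-Seq had been done on 3 WT and 3 KO samples of C57BL/6 mice. WT mice were Foxp3Cre and KO mice Foxp3Cre Zfp335fl/fl, both 2 weeks old per the study's methods. Both groups therefore carried the Cre recombinase and YFP made from the Foxp3 locus, and the deletion of the floxed Zfp335 alleles was limited to cells that had expressed Foxp3. The labels named both lymph nodes and spleen as the source, and whether a sample held cells of 1 mouse or several was not stated, so the p-values measure the spread between these samples, which may be partly technical.

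Cells meet broken and damaged DNA with a small set of pathways. Homologous recombination copies an intact sister chromatid, the Fanconi anemia pathway opens crosslinked strands, and both act mainly while DNA is being replicated. End joining fuses broken ends directly at any stage and is needed by lymphocyte precursors to assemble antigen receptor genes, mismatch and base excision repair replace wrong or damaged bases, and the kinases Atm and Atr and their partners Chek1 and Chek2 halt the cell cycle while repair proceeds. Proliferating T cells are known for raising the replication-linked part of this program.

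Levels are in CPM, counts scaled to a common library size with TMM factors, as mean ± SD over 3 samples per genotype unless single samples are named. Library totals ran from 32032631 to 40728419 counts, which puts the floor of detection, taken as 3 counts, at 0.0747 to 0.0913 CPM for counting error only. A gene was called when edgeR gave a fold change above 1.5 (0.585 on the log2 scale), p under 0.05 and an adjusted p under 0.1. Zfp335, the deleted gene, had 101, 94.3 and 103 CPM in the WT samples (in the order of their replicate numbers, as throughout) against 37.0, 37.9 and 40.2 CPM in the KO samples, the direction that the labels give (log2 change -1.37 with SE 0.07 and edgeR adjusted p 2.14e-05). WT replicate 3 stood apart from the other WT samples. The biological coefficient of variation was 0.263 within WT, 0.126 without that sample, and 0.0703 within KO. Values without WT replicate 3 are therefore given where it changes the call of a member, and for some other members. Without it, the log2 changes of the 21 members called higher ran from 0.58 for Chek2 to 1.68 for Brca1. Rad51ap1 was then at 1.002, Eme1 at 1.196, Fancd2 at 1.21, Exo1 at 1.36, Chek1 at 0.93 and Fanci at 0.72. These values were all lower than with every sample, while Fancm rose from 0.64 to 0.67. Tregs were checked by Foxp3, at 738, 642 and 1190 CPM in the WT samples against 459.7, 472 and 463 CPM in the KO samples. Of the 5 Treg markers, Foxp3 and Ikzf2 were called lower in KO. WT replicate 3 was well above the other WT samples for Foxp3, and its part in that call was not tested. The sums of the list were 3052, 3025 and 4324 CPM in WT and 2456, 2455 and 2420 CPM in KO. None of the 12 B, dendritic and erythroid markers was called higher in KO, and of 2 CD8 T cell markers Cd8a was. Sums ran from 17.99 to 20.1 CPM in WT and 12.1 to 12.6 in KO for B cells, 1.67 to 4.18 and 2.79 to 3.46 for dendritic cells, 15.5 to 63.2 and 27.3 to 29.97 for erythroid cells, and 9.32 to 13.2 and 12.02 to 12.7 for CD8 T cells. The 4 myeloid markers found were called higher, with sums of 17.1, 19.6 and 8.501 CPM in WT and 43.7, 39.4 and 38.7 CPM in KO. Of these, Lyz2 had 12.7, 13.9 and 4.30 CPM in the WT samples against 20.6, 18.6 and 19.3 CPM in the KO samples. Itgam had 2.58, 2.74 and 3.72 CPM in the WT samples against 14.5, 13.02 and 11.998 CPM in the KO samples. The log2 changes were 0.92 for Lyz2, 2.19 for Csf1r, 2.13 for Itgam and 2.09 for Adgre1. WT replicate 3 was the highest WT sample for Itgam and the lowest for the other 3 markers. The part of WT replicate 3 in these calls was not tested. Cd14 was not among the rows. Sums of the 3 NK markers were 3.61, 3.59 and 5.83 CPM in WT and 14.9, 16.1 and 16.2 CPM in KO, and 2 of them were called higher. Most of the KO sums was Eomes, at 1.90, 1.80 and 3.24 CPM in WT against 11.6, 11.1 and 11.3 CPM in KO. Klrb1c was the other called marker. Ncr1 was not called, at 0.543, 0.487 and 0.120 CPM in WT against 0.876, 0.697 and 1.25 CPM in KO. Whether cells of other types were present, and their part in the results below, was not tested. In bulk samples, fewer cells of a type and less RNA per cell cannot be told apart.

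Recombination and Fanconi genes were mostly higher in KO Tregs, while most end joining, mismatch and break-sensing genes stayed under the fold cutoff. Of the 43 rows, all of which passed the filter on low counts, 21 were called higher and 1 lower in KO. This is 48.8% and 2.33% of the members, against 24.4% of all 13594 genes tested called in either direction, 11.9% higher and 12.5% lower. By role, 13 of 16 recombination genes, 5 of 7 Fanconi genes, 2 of 9 sensing and checkpoint genes, 1 of 5 end joining genes and 0 of 6 rows of mismatch, base excision and single-strand break repair were called higher by edgeR. The last role had 2 rows higher and 2 lower at an unadjusted p under 0.05, and none called higher by DESeq2. The 2 higher rows, Parp1 and Msh6, had an edgeR adjusted p under 0.1 and missed the fold cutoff. The median log2 fold change was 0.41 over the members and -0.04 over all genes tested. It was 1.34 for recombination, 0.80 for Fanconi, 0.02 for sensing and checkpoint, 0.01 for end joining and 0.19 for mismatch, base excision and single-strand break repair. Of the 21 rows not called, 10 had an adjusted p under 0.1 but a fold change under the cutoff, 4 of them higher and 6 lower in KO, and 11 had an adjusted p of 0.1 or more. The KO and WT values did not overlap for 32 members, against 53.8% of all genes tested. In 26 of them KO was higher, against 26.2%, and in 6 lower, against 27.6%. Without WT replicate 3, 20 members were called higher and 3 lower.

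**Figure D1:**
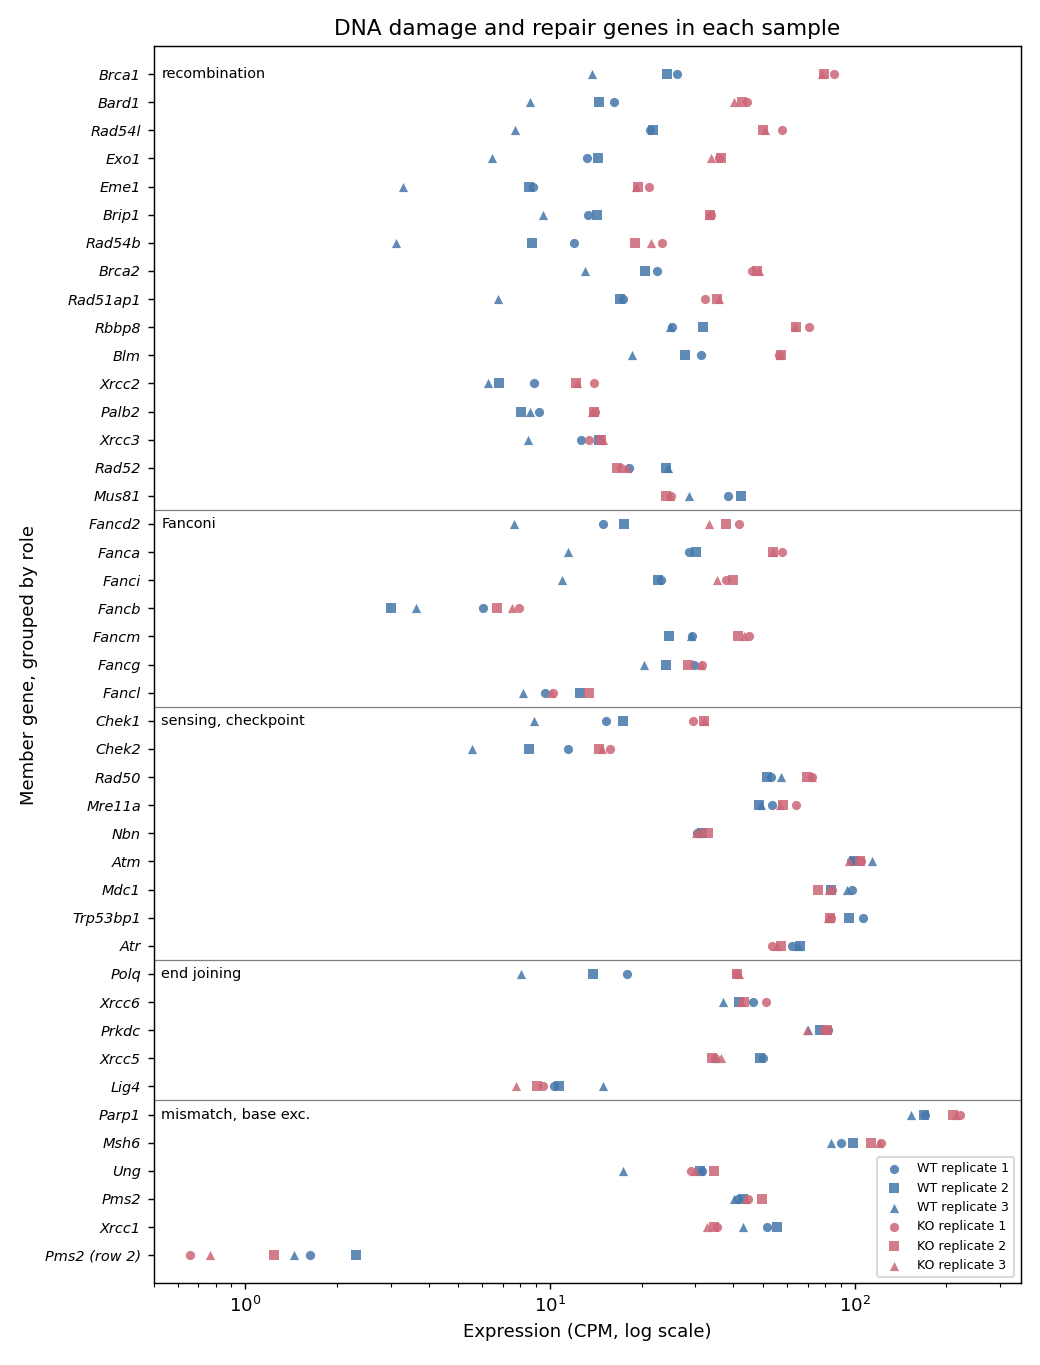
Expression of each of the 43 member rows (y axis, grouped by role) in CPM on a log scale (x axis), with 1 point per sample, blue for WT and red for KO, and the symbol giving the replicate. For Brca1 the KO samples lie between 78.3 and 85.5 CPM, all above the WT samples at 13.8 to 26.1 CPM, and WT replicate 3 (blue triangle) is the lowest WT sample in 32 of the rows.

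The promoters of 4 members that rose are shown to print the motifs counted below in their context. The windows run from 250 bases before to 50 bases after a RefSeq gene start (GRCm38.p6, the assembly mm10 denotes), and 34 of the 42 symbols had one, on 36 windows. Capitals mark a CCAAT box (CCAAT, or ATTGG on the other strand) or a cell cycle homology region (TTTGAA or TTTAAA, or TTCAAA or TTTAAA on the other strand). Both are short elements known from promoters of cell cycle genes, and matches of one may share letters with a neighboring match of the other. Brca1 and Fanca, in recombination and the Fanconi core complex, show CCAAT boxes, Brip1 shows the box on the other strand, and Polq, the polymerase of an alternative end joining route, shows homology regions. These 4 were chosen after the matches were seen, because they hold a motif. The windows of Brca2, Chek1 and Fanci, also called higher, hold none of the motifs in the spellings counted.
Brca1, chr11:101551906-101552205, minus strand: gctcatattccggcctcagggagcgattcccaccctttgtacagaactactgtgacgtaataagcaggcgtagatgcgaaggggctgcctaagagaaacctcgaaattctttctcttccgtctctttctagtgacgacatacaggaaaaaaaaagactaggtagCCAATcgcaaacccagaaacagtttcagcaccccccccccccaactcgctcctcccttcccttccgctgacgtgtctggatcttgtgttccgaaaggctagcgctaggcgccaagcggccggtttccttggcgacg
Fanca, chr8:123318527-123318826, minus strand: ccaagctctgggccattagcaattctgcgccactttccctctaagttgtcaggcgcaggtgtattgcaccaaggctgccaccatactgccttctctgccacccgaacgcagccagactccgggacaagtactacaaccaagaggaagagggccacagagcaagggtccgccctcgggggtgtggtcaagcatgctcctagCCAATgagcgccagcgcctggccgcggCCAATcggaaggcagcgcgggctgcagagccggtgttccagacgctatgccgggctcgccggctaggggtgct
Brip1, chr11:86201144-86201443, minus strand: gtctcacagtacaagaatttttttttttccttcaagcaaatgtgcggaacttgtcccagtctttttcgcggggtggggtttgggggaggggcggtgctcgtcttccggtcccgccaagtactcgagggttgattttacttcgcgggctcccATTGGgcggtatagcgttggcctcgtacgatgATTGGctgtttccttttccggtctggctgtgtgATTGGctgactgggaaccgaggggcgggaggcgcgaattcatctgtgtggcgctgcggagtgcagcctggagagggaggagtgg
Polq, chr16:37011536-37011835, plus strand: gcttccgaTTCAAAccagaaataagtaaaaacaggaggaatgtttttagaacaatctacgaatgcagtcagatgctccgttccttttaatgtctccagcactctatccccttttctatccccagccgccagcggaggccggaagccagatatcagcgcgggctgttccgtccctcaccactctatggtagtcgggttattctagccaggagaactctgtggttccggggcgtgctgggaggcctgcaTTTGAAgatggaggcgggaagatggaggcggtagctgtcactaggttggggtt

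A CCAAT box was in 11 of 17 windows of members called higher (64.7%) and in 9 of 19 windows of the other members (47.4%), against 37.9% of 13578 windows of all genes of the table. The 17 windows belong to 16 genes, because Rad54l is counted more than once, with windows a base apart that hold the same box. Fancd2, Rad54b, Exo1, Rbbp8 and Xrcc2, also called higher, had no window. A homology region was in 3 of 17 (17.6%) and 3 of 19 windows (15.8%), against 20.6% of all windows. It was in 17 of 27 windows (63.0%) of a list of replication and mitosis genes, in which the CCAAT box was in 21 (77.8%). The longer E2F site, counted only as TTTGGCGC or TTTCGCGC on either strand, was in no member's window. These forms were in 5 of 27 windows of the replication and mitosis list (18.5%) and in 1.45% of all windows. Related spellings were not counted, such as TTTCCCGC. On either strand, windows of members called higher (including Bard1, Brca2 and Chek2) and of members not called (including Fancg, Mdc1, Msh6 and Xrcc6) hold it. The counts therefore do not show whether members lack E2F sites. These are counts of letters in short windows and name no factor.

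Homologous recombination genes had the largest median change of the 5 roles. Brca1 and Bard1 encode partners in a ubiquitin ligase that favors the resection of broken ends. Brca1, on chromosome 11 at 101488761 to 101551955, had 26.1, 24.3 and 13.8 CPM in the WT samples against 85.5, 79.2 and 78.3 CPM in the KO samples. It rose from 21.4 ± 6.66 to 81.0 ± 3.93 CPM (log2 change 1.92 with SE 0.22 and edgeR adjusted p 5.06e-04), the largest change among the members. Each KO sample lay far above each WT sample. Bard1 had 16.2, 14.5 and 8.62 CPM in the WT samples against 44.3, 42.6 and 40.2 CPM in the KO samples (log2 change 1.69 with SE 0.21 and edgeR adjusted p 7.92e-04). Per transcript length, the ratio of Brca1 to Bard1 was 1.38, 1.45 and 1.37 in WT and 1.66, 1.60 and 1.68 in KO, so both partners rose and Brca1 somewhat more. Brip1, a helicase that binds Brca1, was even within KO, with 13.3, 14.2 and 9.49 CPM in the WT samples against 33.7, 33.4 and 33.2 CPM in the KO samples (log2 change 1.44 with SE 0.15 and edgeR adjusted p 3.91e-04). Palb2, which joins Brca1 to Brca2, changed least among the called recombination genes, at 8.60 ± 0.572 in WT against 13.9 ± 0.179 CPM in KO (log2 change 0.69 with SE 0.12 and edgeR adjusted p 0.00302).

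Most genes of the later, strand-pairing steps were called higher as well, with Xrcc3 as an exception. Brca2, a large mediator of recombination, had 22.5, 20.5 and 13.04 CPM in the WT samples against 46.1, 47.9 and 48.4 CPM in the KO samples (log2 change 1.34 with SE 0.19 and edgeR adjusted p 0.00119). Rad51ap1 helps the broken strand pair with the intact duplex. It had 17.4, 16.9 and 6.73 CPM in WT, where replicate 3 was well under the other samples, and 32.2, 35.4 and 35.8 CPM in KO (log2 change 1.33 with SE 0.31 and edgeR adjusted p 0.0122). Rad54l and Rad54b encode translocases that act on recombining DNA. Rad54l had 21.3, 21.7 and 7.69 CPM in the WT samples against 57.5, 49.9 and 50.9 CPM in the KO samples (log2 change 1.64 with SE 0.34 and edgeR adjusted p 0.00714). Rad54b had 12.0, 8.71 and 3.12 CPM in the WT samples against 23.3, 19.1 and 21.4 CPM in the KO samples, and its SE was the largest of the called recombination genes (log2 change 1.42 with SE 0.40 and edgeR adjusted p 0.0257). WT replicate 3 held the lowest value of both genes, and without it their log2 fold changes were 1.29 and 1.03. Xrcc2, which also serves recombination, rose less, at 7.33 ± 1.37 in WT against 12.8 ± 0.993 CPM in KO (log2 change 0.80 with SE 0.17 and edgeR adjusted p 0.00738), and Xrcc3, of the same gene family, was not called, at 11.8 ± 3.05 in WT against 14.3 ± 0.842 CPM in KO (log2 change 0.28 with SE 0.19 and edgeR adjusted p 0.30). Without WT replicate 3, Xrcc3 was at 0.08. Rad54l overlaps Lrrc41, Rad54b overlaps Fsbp and Xrcc3 overlaps Klc1, so these counts are uncertain and may include reads of the neighbors.

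Nucleases and helicases of recombination were divided. Rbbp8, which encodes CtIP and starts resection, had 25.0, 31.7 and 24.8 CPM in the WT samples against 70.9, 64.1 and 63.5 CPM in the KO samples (log2 change 1.28 with SE 0.11 and edgeR adjusted p 1.85e-04). Its lead over WT rested little on WT replicate 3, without which the log2 fold change was 1.22. Exo1, the nuclease that extends resection, had 13.2, 14.3 and 6.43 CPM in the WT samples against 35.9, 36.3 and 33.7 CPM in the KO samples (log2 change 1.64 with SE 0.26 and edgeR adjusted p 0.00231). Blm, the helicase that takes apart joined molecules, had 31.4, 27.6 and 18.6 CPM in the WT samples against 56.2, 57.4 and 57.0 CPM in the KO samples (log2 change 1.14 with SE 0.17 and edgeR adjusted p 0.00185). Eme1 and Mus81 encode the paired subunits of an endonuclease that cuts joined molecules, and they went apart. Eme1 had 8.77, 8.55 and 3.30 CPM in the WT samples against 21.2, 19.4 and 19.1 CPM in the KO samples (log2 change 1.53 with SE 0.33 and edgeR adjusted p 0.00789). Mus81 had 38.5, 42.3 and 28.6 CPM in the WT samples against 25.0, 24.02 and 24.8 CPM in the KO samples, with each KO sample below each WT sample and the change just under the fold cutoff (log2 change -0.57 with SE 0.14 and edgeR adjusted p 0.0161). Without WT replicate 3 Mus81 was called lower, at -0.72 (adjusted p 5.18e-06). The per-length ratio of Eme1 to Mus81 was 0.193, 0.171 and 0.0978 in WT and 0.715, 0.684 and 0.654 in KO, and the groups did not overlap. This pair and the other ratios between members were chosen after their values were seen. Eme1 overlaps Lrrc59 and Mrpl27 and is uncertain for that reason. Rad52, an annealing factor, was also lower by less than the cutoff, with 18.2, 24.1 and 24.3 CPM in the WT samples against 17.1, 16.5 and 17.9 CPM in the KO samples (log2 change -0.37 with SE 0.13 and edgeR adjusted p 0.0595).

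In the Fanconi pathway, a core complex attaches ubiquitin to the Fancd2 and Fanci pair at a crosslink. Both genes of the pair rose, Fancd2 more than Fanci. The per-length ratio of Fancd2 to Fanci was 0.547, 0.649 and 0.586 in WT and 0.927, 0.799 and 0.793 in KO. Fancd2 had 14.97, 17.5 and 7.60 CPM in the WT samples against 41.7, 37.9 and 33.2 CPM in the KO samples (log2 change 1.49 with SE 0.27 and edgeR adjusted p 0.00408), and Fanci rose from 18.9 ± 6.89 to 37.7 ± 2.33 CPM (log2 change 0.998 with SE 0.26 and edgeR adjusted p 0.0174). Of the core complex, Fanca had 28.7, 30.05 and 11.5 CPM in the WT samples against 57.6, 53.8 and 54.0 CPM in the KO samples (log2 change 1.24 with SE 0.31 and edgeR adjusted p 0.0162). Its WT samples spread widely, and without WT replicate 3 its log2 fold change was 0.91. Fancb and Fancm were called at smaller changes. Fancb, on chromosome X, was 4.23 ± 1.59 in WT against 7.36 ± 0.608 CPM in KO (log2 change 0.80 with SE 0.27 and edgeR adjusted p 0.0505), and the call was lost without WT replicate 2, KO replicate 1 or KO replicate 3, at 0.60, 0.75 and 0.79. Fancm, the translocase that brings the core complex to DNA, was 27.7 ± 2.65 in WT against 43.2 ± 1.80 CPM in KO (log2 change 0.64 with SE 0.10 and edgeR adjusted p 0.00166), and it lay under the fold cutoff, at 0.56, when WT replicate 2 was left out. Fancg and Fancl were not called. Fancg had 29.7, 24.1 and 20.3 CPM in the WT samples against 31.6, 28.4 and 31.2 CPM in the KO samples (log2 change 0.30 with SE 0.14 and edgeR adjusted p 0.134), and Fancl, the ligase subunit, had 9.64, 12.6 and 8.14 CPM in the WT samples against 10.2, 13.4 and 10.1 CPM in the KO samples (log2 change 0.15 with SE 0.20 and edgeR adjusted p 0.582). The KO and WT values of both overlapped, and without WT replicate 3 they were at 0.17 and 0.02. Fanca overlaps Zfp276, Fancb overlaps Mospd2, Fancd2 overlaps Fancd2os, Fanci overlaps Polg and Fancl overlaps Vrk2, so these counts are uncertain.

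**Figure D2:**
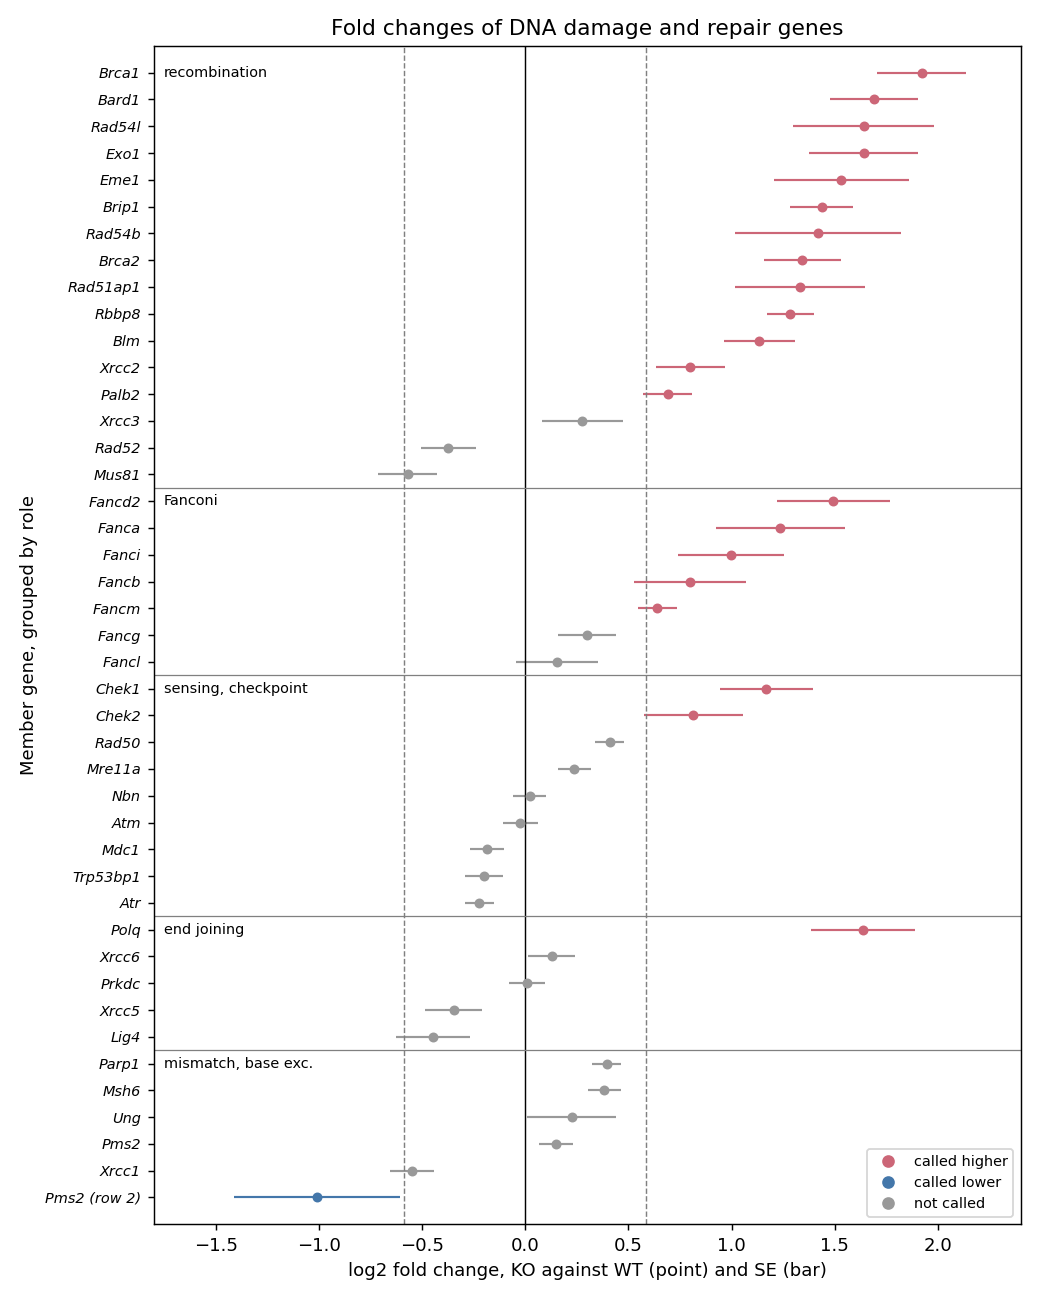
log2 fold change of KO against WT for each member row (x axis), with bars for the SE and rows grouped by role (y axis), red for genes called higher, blue for genes called lower and grey for genes not called; dashed lines mark a fold change of 1.5. The red points fill most of the recombination and Fanconi blocks, up to 1.92 for Brca1, and the other blocks hold 3 of them, Chek1, Chek2 and Polq.

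Sensing and checkpoint genes split between the kinases that receive the signal and those that sense the break. Chek1, the kinase that answers stalled replication, had 15.3, 17.4 and 8.86 CPM in the WT samples against 29.4, 32.01 and 32.1 CPM in the KO samples (log2 change 1.17 with SE 0.22 and edgeR adjusted p 0.00499). Chek2, which answers double-strand breaks, was 8.51 ± 2.95 in WT against 14.99 ± 0.634 CPM in KO (log2 change 0.81 with SE 0.24 and edgeR adjusted p 0.0302). Without WT replicate 3, Chek2 lay under the fold cutoff, at 0.58. Their upstream kinases were not called. Atr was 64.6 ± 1.98 in WT against 55.4 ± 1.83 CPM in KO (log2 change -0.22 with SE 0.07 and edgeR adjusted p 0.0354), and it overlaps 1700065D16Rik. Atm had 96.9, 99.2 and 114 CPM in the WT samples against 105, 104 and 95.9 CPM in the KO samples, with overlapping groups (log2 change -0.02 with SE 0.08 and edgeR adjusted p 0.855). The per-length ratio of Chek1 to Atr was 0.521, 0.560 and 0.290 in WT and 1.17, 1.19 and 1.23 in KO. Chek1 thus stood below Atr in WT and above it in KO on this scale.

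The Mre11a, Rad50 and Nbn proteins form the complex that first binds a broken end, and their genes stayed under the fold cutoff. Rad50 was 53.9 ± 2.97 in WT against 71.6 ± 1.56 CPM in KO (log2 change 0.41 with SE 0.07 and edgeR adjusted p 0.00327), and each KO sample was above each WT sample. Mre11a was 50.5 ± 2.76 in WT against 59.6 ± 3.92 CPM in KO (log2 change 0.24 with SE 0.08 and edgeR adjusted p 0.0513), and Nbn was 31.0 ± 0.605 in WT against 31.5 ± 1.51 CPM in KO (log2 change 0.02 with SE 0.08 and edgeR adjusted p 0.856). The genes of scaffold proteins at breaks were not called. Trp53bp1, which protects ends from resection and overlaps Map1a and Tubgcp4, had 106, 95.8 and 83.2 CPM in the WT samples against 83.8, 83.1 and 81.7 CPM in the KO samples (log2 change -0.20 with SE 0.09 and edgeR adjusted p 0.133). Mdc1, which holds repair factors at marked chromatin, was 92.0 ± 7.71 in WT against 80.9 ± 4.38 CPM in KO (log2 change -0.19 with SE 0.08 and edgeR adjusted p 0.120). Brca1 and Trp53bp1 are known to oppose each other at broken ends, and the per-length ratio of Brca1 to Trp53bp1 was 0.359, 0.371 and 0.242 in WT and 1.49, 1.40 and 1.40 in KO. H2ax encodes the histone H2A variant that is phosphorylated around breaks, and was listed as H2afx. It had 46.6, 45.6 and 30.5 CPM in the WT samples against 78.5, 86.2 and 93.6 CPM in the KO samples and was called higher (log2 change 1.07 with SE 0.16 and edgeR adjusted p 0.00169). Transcript levels give no measure of the phosphorylated form.

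End joining genes moved little, with 1 exception. Polq, the polymerase of theta-mediated end joining, had 17.9, 13.9 and 8.02 CPM in the WT samples against 40.9, 41.2 and 41.8 CPM in the KO samples (log2 change 1.64 with SE 0.25 and edgeR adjusted p 0.00184). Its KO samples lay close together. The classical route was not called. Xrcc5 and Xrcc6 encode the Ku proteins that hold the broken ends, and Prkdc the kinase that they recruit. Prkdc had 81.4, 76.7 and 70.4 CPM in the WT samples against 79.3, 80.9 and 69.9 CPM in the KO samples (log2 change 0.01 with SE 0.09 and edgeR adjusted p 0.946), and Xrcc6, which overlaps Desi1, had 46.5, 41.7 and 36.9 CPM in the WT samples against 51.0, 43.4 and 42.5 CPM in the KO samples (log2 change 0.13 with SE 0.11 and edgeR adjusted p 0.408). Xrcc5 was 44.5 ± 8.35 in WT against 35.0 ± 1.19 CPM in KO (log2 change -0.35 with SE 0.14 and edgeR adjusted p 0.0834), and WT replicate 3, at 34.9 CPM, lay within the KO range. Lig4, the ligase that seals the ends, was 12.0 ± 2.54 in WT against 8.76 ± 0.909 CPM in KO (log2 change -0.45 with SE 0.18 and edgeR adjusted p 0.0865). Without WT replicate 3, Lig4 was at -0.26 and Xrcc6 at 0.04, while Xrcc5 moved further from 0, to -0.50, still under the fold cutoff. The per-length ratio of Polq to Lig4 was 1.02, 0.764 and 0.317 in WT and 2.53, 2.68 and 3.17 in KO.

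Mismatch, base excision and single-strand break genes held the most abundant members and no gene called higher. Parp1, the sensor of nicked DNA, was the highest of all members per transcript length, at 42.3 CPM per kb in WT and 55.6 in KO. It had 170.3, 169 and 153 CPM in the WT samples against 221, 210.2 and 215 CPM in the KO samples (log2 change 0.39 with SE 0.07 and edgeR adjusted p 0.00340). Msh6, which recognizes mismatches and overlaps Fbxo11, had 90.1, 98.3 and 83.3 CPM in the WT samples against 122, 113 and 119.8 CPM in the KO samples (log2 change 0.38 with SE 0.08 and edgeR adjusted p 0.00698). Every KO sample of both genes was above every WT sample, by less than the fold cutoff. Xrcc1, the scaffold of single-strand break repair, went the other way, at 50.002 ± 6.53 in WT against 34.2 ± 1.34 CPM in KO (log2 change -0.55 with SE 0.11 and edgeR adjusted p 0.00555). Xrcc1 was called lower with library totals alone, at -0.59, and without WT replicate 3, at -0.65 (adjusted p 5.37e-06). Ung, which removes uracil and overlaps Alkbh2, was 26.7 ± 8.005 in WT against 31.2 ± 3.001 CPM in KO (log2 change 0.23 with SE 0.22 and edgeR adjusted p 0.450), and at -0.0086 without WT replicate 3. Pms2, which encodes a nuclease of mismatch repair, was 41.6 ± 1.38 in WT against 46.1 ± 3.19 CPM in KO on its main row (log2 change 0.15 with SE 0.08 and edgeR adjusted p 0.183). The other Pms2 row was the only member called lower, at 1.63, 2.31 and 1.44 CPM in the WT samples against 0.657, 1.24 and 0.766 CPM in the KO samples (log2 change -1.01 with SE 0.40 and edgeR adjusted p 0.0843). It held 285 counts over the 6 samples, the files do not say what sets the rows apart, and the call was lost without any 1 of WT replicate 1, WT replicate 2, KO replicate 1 or KO replicate 3.

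The members called higher had lower levels and a wider spread in WT than those not called. Per transcript length, the 21 members called higher had a median level of 2.81 CPM per kb in WT and 7.42 in KO, and the 21 not called had 10.52 and 10.98. Fancb, Exo1, Polq, Brca2 and Brip1 were the lowest in WT of the members called higher, at 1.42, 1.45, 1.55, 1.74 and 1.78 CPM per kb. The median coefficient of variation of the called members was 34.7% in WT, 9.0% between WT replicates 1 and 2 alone, and 4.89% in KO. For the members not called it was 11.4%, 5.78% and 4.96%. WT replicate 3 was the lowest WT sample for 18 of 21 called members and for 13 of 21 members not called, against 39.3% of all genes tested. Its level relative to the mean of WT replicates 1 and 2 had a median of 0.546 over the called members, from 0.302 for Rad54b to 1.08 for Fancm, and of 0.890 over the members not called. Over all genes tested the median was 0.996.

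Proliferation genes moved with the members. A list of 18 replication genes and 15 mitosis genes, none of them a member, was called higher in KO throughout, 33 of 33 (median log2 fold change 1.67). Rrm2, Bub1 and Ccna2 led it, at 2.46, 2.18 and 2.11, with Mki67 at 2.09 and Top2a at 1.80. Mki67 had 441, 445 and 199 CPM in the WT samples against 1568, 1549 and 1507 CPM in the KO samples. All 33 genes were lowest, among WT samples, in replicate 3. The recombination members summed to 295, 299 and 192 CPM in WT and 590.3, 566 and 565 CPM in KO, and the Fanconi members to 141, 135 and 91.2 CPM in WT and 232, 222 and 215 CPM in KO. The replication list summed to 1618, 1605 and 1039 CPM in WT and 3510, 3333 and 3339 CPM in KO. As a share of the replication list, recombination and Fanconi members together came to 26.9, 27.0 and 27.2% in WT and 23.4, 23.6 and 23.4% in KO. As a share of the mitosis list they came to 39.5, 38.8 and 55.5% in WT and 23.8, 23.1 and 23.1% in KO. The share of the replication list was close in all WT samples, whereas that of the mitosis list was far higher in WT replicate 3 than in the other WT samples. All members summed together, as a share of both lists, came to 57.2, 56.1 and 83.6% in WT and 29.1, 29.2 and 28.9% in KO. Each of these shares was lower in every KO sample than in every WT sample. The part of proliferation in the fold changes of the members was not tested. Sensing and checkpoint members summed to 528, 502 and 508 CPM in WT and 539.6, 528 and 522 CPM in KO.

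**Figure D3:**
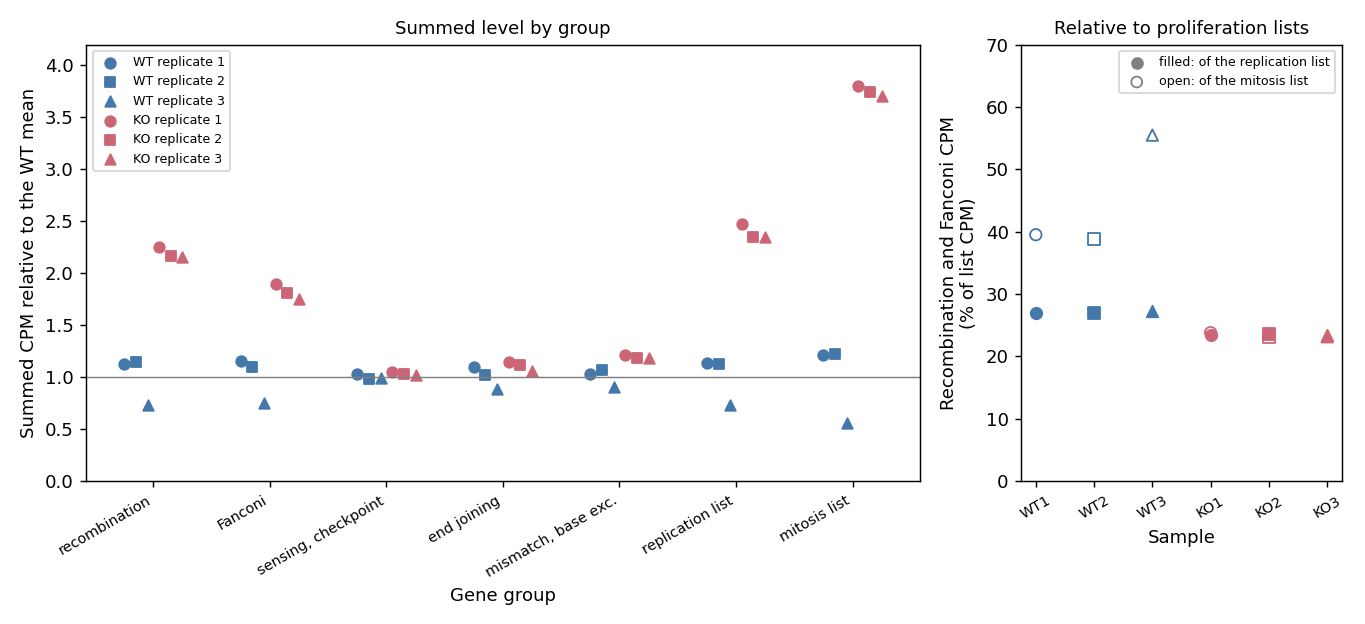
Left, summed CPM of each group of members and of the replication and mitosis lists, relative to the WT mean of that group (y axis), with 1 point per sample. Right, the summed CPM of recombination and Fanconi members as a percent of the replication list (filled) and of the mitosis list (open) in each sample. In the left panel the recombination, Fanconi, replication and mitosis groups are high in KO and low in WT replicate 3, and in the right panel the filled points lie at 26.9% to 27.2% in WT and 23.4% to 23.6% in KO, while the open point of WT replicate 3 stands above those of the other WT samples.

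Other repair genes were described beside the members. Of 83 listed, 80 were in the table, and 15 were called higher and 5 lower in KO (18.8% and 6.25%, against 11.9% and 12.5% of all genes), with a median log2 fold change of 0.02. Recombination and Fanconi genes gave 7 of the 15, from 17 in the class, and 1 of the 5. Clspn, which encodes the Claspin that Chek1 needs for activation, changed most, from 35.5 ± 16.6 to 160.1 ± 10.1 CPM (log2 change 2.17 with SE 0.33 and edgeR adjusted p 0.00182). With it, Tipin and Topbp1 were called among 14 signalling genes, at 1.16 and 0.82. Among 32 excision genes, 3 were called higher, Lig1, Neil3 and Fen1, at 1.32, 1.32 and 1.11, which encode a ligase and a flap nuclease of replication and a glycosylase. WT replicate 3 had 5.74 CPM of Neil3 against 26.8 and 23.6 CPM in WT replicates 1 and 2. Polh and Rad18, which let replication pass damaged bases, were called among 7 translesion genes, at 0.89 and 0.80.

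The 5 other repair genes called lower came from 3 classes. Rad51b, a recombination gene, was 7.003 ± 2.23 in WT against 3.55 ± 0.731 CPM in KO (log2 change -0.98 with SE 0.29 and edgeR adjusted p 0.0319), and Mlh3, a mismatch repair gene, was 26.6 ± 3.63 in WT against 13.7 ± 1.44 CPM in KO (log2 change -0.95 with SE 0.14 and edgeR adjusted p 0.00138). Xpc, which finds bulky damage, and Ercc6, which serves repair of transcribed genes, were called lower at -0.68 and -0.65, and Neil2, a glycosylase, at -0.62. Of 5 other end joining genes none was called by edgeR (log2 fold changes from -0.35 to 0.03) or by DESeq2. Of these, 1, Polm, had an unadjusted p under 0.05 and an edgeR adjusted p of 0.0722, and missed the fold cutoff. Fen1, Tipin, Topbp1, Polh, Rad18, Polm and Neil2 were named after their values were seen. Of 18 p53 target genes found, 4 were called higher and 3 lower (22.2% and 16.7%, against 11.9% and 12.5% of all genes). WT replicate 3 was the highest WT sample for 15 of the 18, against 5330 of all 13594 genes tested. Its median level relative to the mean of WT replicates 1 and 2 was 1.309, against 0.996 over all genes tested. The part of this sample in the calls was not tested. Cdkn1a, the p21 inhibitor of cyclin-dependent kinases, had 5.51, 4.08 and 14.96 CPM in the WT samples against 61.0, 54.6 and 58.3 CPM in the KO samples (log2 change 2.83 with SE 0.43 and edgeR adjusted p 0.00182), with Phlda3, Pmaip1 and Zmat3 at 1.44, 1.08 and 0.62. Sesn1, Trp53inp1 and Btg2 were called lower, at -1.57, -0.78 and -0.69, and WT replicate 3 held the highest WT value of each. Trp53inp1 had 327, 388 and 489 CPM in the WT samples against 216, 248 and 239 CPM in the KO samples. For Btg2 these were 141, 131 and 229 CPM against 104, 99.9 and 107 CPM. The list thus held calls in both directions, with a median log2 fold change of 0.08.

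**Figure D4:**
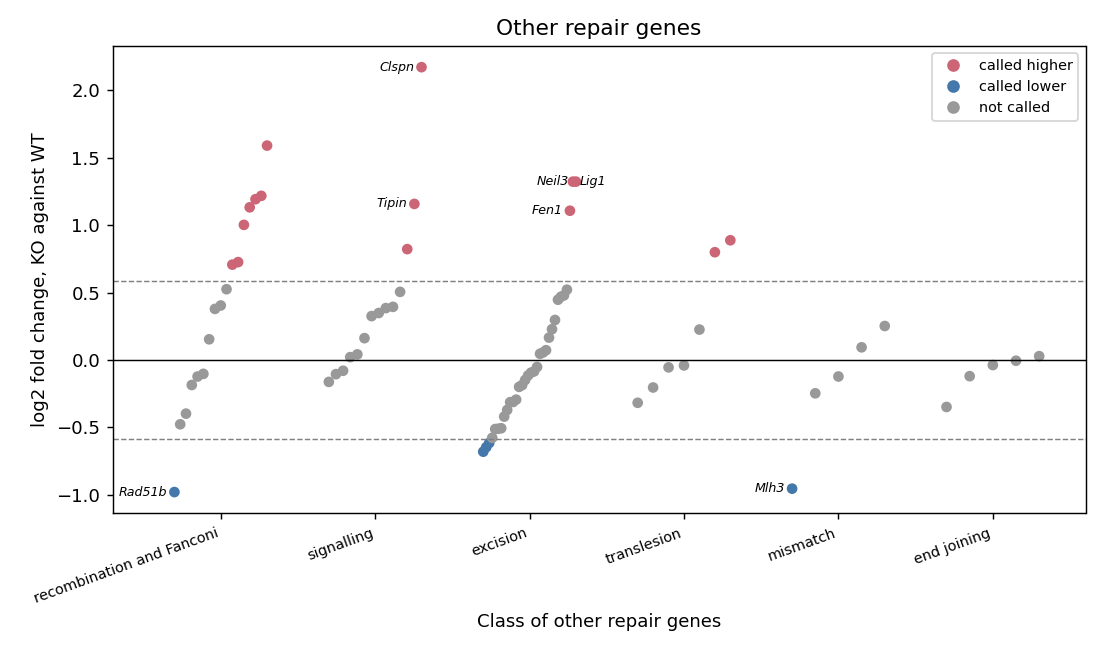
log2 fold change of KO against WT (y axis) for 80 other repair genes by class (x axis), 1 point per gene, red for genes called higher, blue for genes called lower and grey for genes not called; dashed lines mark a fold change of 1.5, and 7 genes that the text describes carry their names. Clspn is the highest point, at 2.17, and Rad51b and Mlh3 are the lowest, at -0.98 and -0.95.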

How the data were processed

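The 6 bulk RNA-Seq libraries (3 WT, 3 KO) of sorted Tregs were analyzed. The study's methods name SOAPnuke for read filtering, HISAT2 for mapping to mm10, with 1 alignment kept for each read, and StringTie for quantification. The authors deposited whole-number counts per gene, without normalization, and how these were derived, the annotation and the use of strand were not given in the sources used here. Keeping 1 alignment can misplace reads of near-identical genes, and counting without strand can mix overlapping genes (14 of 42 members overlap a protein-coding gene). The smallest sum of a row over the samples was 60, so rows with low counts had been removed.

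Counts were filtered with filterByExpr (minimum count 10), which left 13594 of 13709 rows, scaled by TMM and tested over all 6 samples with the quasi-likelihood F-test of edgeR 4.0.16 in R 4.3.3, with no covariate. The p-values are two-sided and adjusted by Benjamini-Hochberg over all genes tested, at the study's cutoffs. The SE is the log2 fold change divided by the square root of F. DESeq2 1.42.0, the study's test, was an alternative. The procedure was tested on simulated data. Levels between genes use the longest GENCODE M21 transcript. No 2 replicates agreed within sampling noise.

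The members and lists were chosen with earlier results of these data known. All members are named, with sample values for Zfp335, the 15 largest called rises, any called falls, and the 2 most abundant uncalled members of each role. Of other lists, up to 4 called genes per direction are named, plus Mki67, Top2a and the myeloid markers called higher. A result that this rule selects is not reported here.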

Additional observations from a re-analysis of the deposited data

How the results depend on the processing

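The count of 21 members called higher was the same with DESeq2, RLE size factors, library totals alone, no filter, at least 10 counts in every sample, the replicate block and offsets for GC content and length, and these were the same 21 genes. It was 23 when only an adjusted p under 0.05 was required (20 shared). It was 12 with glmTreat, 10 of them recombination or Fanconi genes against 18 in the main test. The glmTreat calls, here and below, required an adjusted p under 0.05 rather than 0.1, so they differ from the main ones in cutoff as well as test. Leaving out 1 sample gave 19 to 21, and 0 to 3 members called lower. Members called lower numbered 3 with library totals alone, 3 with no fold cutoff and 0 with glmTreat. Over the whole table, 5244 genes were called with no fold cutoff and 1402 with glmTreat, against 3318. Other repair genes called higher were 26 and 8, and those called lower 12 and 1. Atm reversed, to 0.0008 with offsets and to 0.049 and 0.019 without WT replicate 3 or KO replicate 3. Nbn reversed, to -0.017 with library totals alone, -0.028 with offsets and -0.015 without KO replicate 2. Prkdc reversed, to -0.032 with library totals alone and to -0.049, -0.014 and -0.030 without WT replicate 3, KO replicate 1 or KO replicate 2. Ung reversed, to -0.0086 without WT replicate 3. Leaving out 1 sample gave -0.067 to 0.0485 for Atm, -0.0149 to 0.0541 for Nbn, -0.0486 to 0.0733 for Prkdc and -0.0086 to 0.3651 for Ung. The reversed values lie within 0.05 of 0, and the cause was not tested. Mus81 and Xrcc1 were called lower with library totals alone, at -0.61 and -0.59, and without WT replicate 3. Of all calls over the table, 48.8% were in the higher direction, and 57.1% with glmTreat.

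Samples of the same number did not deviate together (correlations from -0.0042 to 0.0576, with 2 of 3 samples of each genotype closest to their own number). With the replicate block, 21 members were called higher and 1 lower, and 3190 genes over the table.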
